A study of Mus musculus with 8 samples.

Results

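The 10 genes described here carry out antigen presentation by MHC class II in the mouse: H2-Aa, H2-Ab1, H2-Eb1, H2-DMa, H2-DMb1, H2-DMb2, H2-Oa, H2-Ob, Cd74 and Ciita. They were found by cutting the version from each gene identifier of the count table and reading its symbol from the GENCODE annotation of GRCm38. All 10 were among the 55487 genes counted and among the 18884 genes with enough counts to be tested. The study measured RNA of pro-B cells, which are rearranging their heavy-chain genes in the marrow, by RNA-seq. It compared 4 libraries labelled with the genotype CD25_KO (called labelled knockout below) with 4 libraries labelled wild type. The labels give no strain, age, knockout design or sort gate, nor whether each library had an animal of its own. The p-values therefore cover only how much these samples varied, and that variation may be technical.

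Class II molecules are pairs of an alpha and a beta chain that show peptides from the endosomal system to CD4+ T cells. The invariant chain, encoded by Cd74, escorts newly made pairs and fills their groove, and H2-DM then removes its last fragment so that peptide can bind. H2-O restrains H2-DM, chiefly in B cells. The co-activator CIITA, encoded by Ciita, binds no DNA itself. It is recruited by factors that sit on the X and Y boxes of class II promoters. Class II is low early in the B lineage and high on mature B cells.

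Letters of the X and Y boxes can be read in most of the promoters at hand, and the sequences are shown because these promoters share them. RefSeq promoter sequences of GRCm38.p6 were at hand for 7 of the 10 members, all but H2-Ab1, Cd74 and Ciita. In 6 of the 7, letters of the X box core, GCAAC or AACNGATG, lay 29 to 32 bases before GATTGG, the letters of the Y box, on the strand of the gene. The Y letters lay 44 to 91 bases before the RefSeq start. Each stretch runs 5′ to 3′ along the gene, with the X and Y letters in capitals.
H2-Aa, chr17:34287855-34287912, minus strand: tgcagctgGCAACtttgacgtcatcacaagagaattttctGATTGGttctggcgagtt
H2-Eb1, chr17:34305768-34305824, plus strand: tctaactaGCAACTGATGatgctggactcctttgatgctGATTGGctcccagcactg
H2-DMb1, chr17:34153091-34153146, plus strand: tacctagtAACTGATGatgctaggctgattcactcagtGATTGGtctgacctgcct
H2-DMb2, chr17:34145120-34145175, plus strand: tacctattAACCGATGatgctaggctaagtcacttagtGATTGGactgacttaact
H2-Oa, chr17:34092295-34092352, plus strand: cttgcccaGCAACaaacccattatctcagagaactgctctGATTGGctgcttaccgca
H2-Ob, chr17:34238810-34238864, plus strand: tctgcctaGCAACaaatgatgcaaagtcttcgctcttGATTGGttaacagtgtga

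In H2-Eb1 the GCAAC and AACNGATG letters overlap, and the stretches of H2-DMb1 and H2-DMb2 are near copies of each other. Over all 32851 promoters of the table, GATTGG was found on either strand in 14.6%, GCAAC in 29.9% and AACNGATG in 1.98%. The arrangement itself, with X letters starting 20 to 40 bases before GATTGG on the strand of the gene, was found in 68 promoters, or 0.207%. The promoter entries of H2-DMa did not hold it. These are matches of letters, not measured binding.

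Library totals ran from 43974037 to 57988772 counts, and levels are given as CPM, the library-scaled unit of edgeR with TMM factors. The targeted gene was checked first. Il2ra, which encodes CD25, had 145, 168, 244 and 168 CPM in labelled knockout libraries 1 to 4, against 200.2, 216, 216 and 140.4 CPM in wild-type libraries 1 to 4. The groups overlapped and the log2 fold change was -0.09 ± 0.19 (SE), with an adjusted p of 0.849 in edgeR's quasi-likelihood test. The counts over all exons thus did not separate the labels, and do not show whether single exons are missing. The cells carried the defining pro-B markers, with all 14 listed genes counted in every library and summed levels of 10266 to 11944 CPM in labelled knockout libraries and 10269 to 12209 CPM in wild-type libraries. Wild-type library 4 stood apart: in the fit without it 363 of 19506 genes passed an adjusted p of 0.05 (1.86%), whereas 0 of 18884 passed with all 8 libraries. The labelled knockout libraries 2 and 4 and wild-type library 2 carried Y-linked counts above 5 CPM in sum (496 to 506 CPM), wild-type library 3 had 2.73 CPM and the other 4 libraries under 0.1 CPM.

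None of the 10 class II genes passed the test for a difference between labelled knockout and wild-type libraries. By its labels this comparison asks what loss of CD25 does to pro-B cell expression, though the Il2ra counts did not show that loss. With all 8 libraries, 0 of the 10 passed an adjusted p of 0.05, as did 0% of all genes tested, whose smallest adjusted p was 0.391 in edgeR's quasi-likelihood test. Unadjusted p-values under 0.05 were found for 0 of the 10 members, against 12.6% of all genes tested (5.53% higher and 7.11% lower). The groups overlapped for all 10 members, whereas 6.79% of all genes tested had groups that did not overlap, 2.62% with the labelled knockout higher. The log2 fold change was above 0 for 6 members and below 0 for 4, with 50.4% of all genes above 0. The median over the members was 0.04, and the median over all genes was 0.0033. For 9 of the 10 members, all but H2-Ab1, the 95% interval of the ratio lay between 0.5 and 2.

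**Figure D1:**
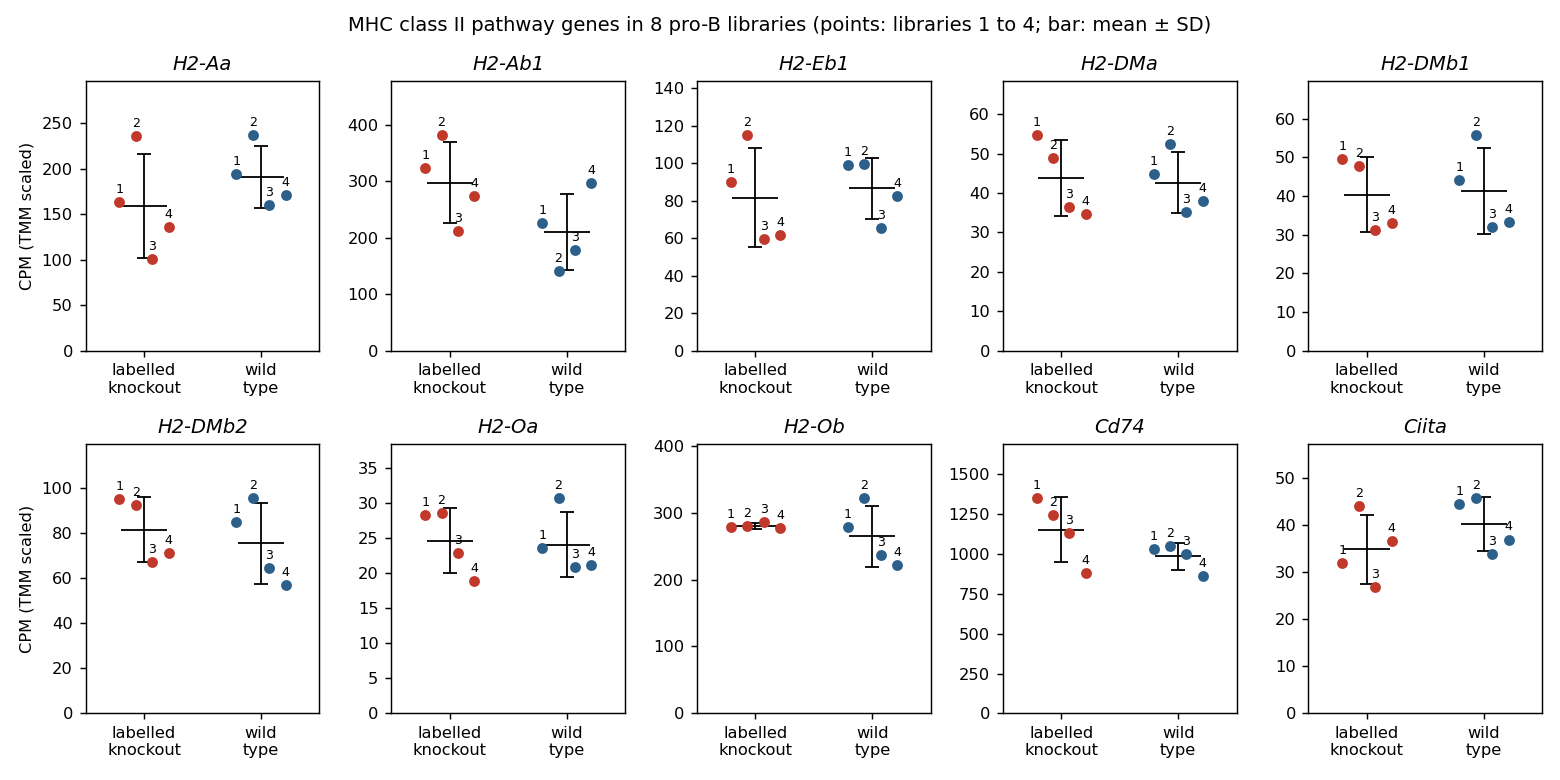
Level of each class II gene in CPM (TMM scaled, linear axis from 0) in the 4 labelled knockout libraries on the left and the 4 wild-type libraries on the right of each panel; numbers are the library numbers and bars the mean ± SD. The groups overlap in all 10 panels, and H2-Ob has its 4 labelled knockout libraries between 276 and 286 CPM.

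The 8 H2 genes lie in the class II region of chromosome 17, between 34092340 and 34316674 (GRCm38). The classical chains form the peptide-binding surface molecules. H2-Aa, on chromosome 17 from 34282744 to 34287823 (minus strand), encodes the alpha chain of I-A. It had 164, 236, 101 and 135 CPM in labelled knockout libraries 1 to 4, against 194, 237, 161 and 171 CPM in wild-type libraries 1 to 4. Library 2 was the highest of both groups and labelled knockout library 3 the lowest of all 8. The log2 fold change was -0.26 ± 0.24 (95% interval -0.79 to 0.27, adjusted p 0.636 in edgeR's quasi-likelihood test). It was -0.48 without labelled knockout library 2, with an adjusted p of 0.306 in that test, -0.10 without labelled knockout library 3 and -0.11 without wild-type library 2.

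H2-Ab1, at 34257689 to 34269419 on the plus strand, encodes the I-A beta chain and gave the largest difference among the members. It had 323, 382, 211 and 274 CPM in labelled knockout libraries 1 to 4, against 226, 141, 178 and 297 CPM in wild-type libraries 1 to 4. Wild-type libraries 1 and 4 lay within the labelled knockout range, and labelled knockout libraries 3 and 4 lay within the wild-type range. The mean was 298 ± 72.4 CPM in labelled knockout libraries and 210.5 ± 67.3 CPM in wild-type libraries (SD, n = 4 each). The log2 fold change of 0.50 ± 0.24 (95% interval -0.04 to 1.04) had an adjusted p of 0.406 in edgeR's quasi-likelihood test. Without wild-type library 4 it was 0.71 ± 0.21, with an adjusted p of 0.0887 in the same test. Its exons hold 57.7% G and C, above the 90th percentile of genes (56.9%), and the fold change was 0.25 with an adjusted p of 0.616 in edgeR's test once the GC trend of each library was removed.

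H2-Eb1, at 34305867 to 34316674, encodes the beta chain of I-E, the other classical molecule. It had 90.1, 115, 59.5 and 62.0 CPM in labelled knockout libraries 1 to 4, against 99.3, 99.7, 65.5 and 82.5 CPM in wild-type libraries 1 to 4. In both groups libraries 1 and 2 were above libraries 3 and 4. Its log2 fold change was -0.09 ± 0.23 (95% interval -0.59 to 0.42, adjusted p 0.884 in edgeR's quasi-likelihood test). Its partner H2-Ea was not in the count table under that name. The entry H2-Ea-ps had 25 counts in all 8 libraries together, against 34682 for H2-Eb1, and was not tested.

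H2-DM, the editor of the peptide groove, is a pair of H2-DMa with an H2-DMb chain, and the mouse has neighbouring H2-DMb1 and H2-DMb2 genes. H2-DMa had 54.7, 49.0, 36.6 and 34.8 CPM in labelled knockout libraries 1 to 4, against 44.9, 52.5, 35.1 and 38.1 CPM in wild-type libraries 1 to 4. H2-DMb1 had 49.7, 47.6, 31.2 and 32.9 CPM in labelled knockout libraries 1 to 4, against 44.03, 55.8, 31.9 and 33.3 CPM in wild-type libraries 1 to 4. H2-DMb2 had 95.1, 92.5, 67.3 and 71.3 CPM in labelled knockout libraries 1 to 4, against 85.0, 95.7, 64.5 and 57.0 CPM in wild-type libraries 1 to 4. All 3 genes had libraries 1 and 2 above libraries 3 and 4 in both groups, and the groups covered almost the same range. The log2 fold changes were 0.04 ± 0.18 for H2-DMa, -0.03 ± 0.22 for H2-DMb1 and 0.11 ± 0.19 for H2-DMb2, with adjusted p-values of 0.947, 0.962 and 0.813 in edgeR's quasi-likelihood test. H2-DMb1 and H2-DMb2 are not fully separate measurements, because 22.7% of the 50-base stretches of H2-DMb1 transcripts and 24.8% of those of H2-DMb2 occur in other genes as well, each other included, and multi-mapping fragments were counted at every alignment. H2-DMa shares 10.4% of its exon bases with Brd2 on the opposite strand, and the file headers record no strand setting.

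H2-O is formed by H2-Oa and H2-Ob. H2-Oa had 28.3, 28.5, 22.8 and 18.9 CPM in labelled knockout libraries 1 to 4, against 23.5, 30.7, 20.8 and 21.1 CPM in wild-type libraries 1 to 4. H2-Ob had 279, 279, 286 and 276 CPM in labelled knockout libraries 1 to 4, against 279, 322, 237 and 221 CPM in wild-type libraries 1 to 4. H2-Oa followed the H2-DM genes, with libraries 1 and 2 the highest of each group, whereas H2-Ob was nearly constant in the labelled knockout and spread on both sides of that level in wild type. The SD of H2-Ob was 4.26 CPM in labelled knockout libraries and 45.4 CPM in wild-type libraries (n = 4 each), a difference in spread that was not tested. The log2 fold change was 0.03 ± 0.18 for H2-Oa and 0.08 ± 0.12 for H2-Ob, with adjusted p-values of 0.950 and 0.781 in edgeR's quasi-likelihood test. H2-Oa shares 22.8% of its exon bases with BC051537 on the opposite strand.

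The invariant chain gene Cd74, on chromosome 18 from 60803848 to 60812652, had the highest level of the members. It had 1354, 1246, 1129 and 878 CPM in labelled knockout libraries 1 to 4, against 1032, 1049.5, 999 and 864 CPM in wild-type libraries 1 to 4. The 3 highest libraries were labelled knockout, but labelled knockout library 4 was below wild-type libraries 1 to 3. Its log2 fold change was 0.22 ± 0.13 (95% interval -0.07 to 0.52, adjusted p 0.483 in edgeR's quasi-likelihood test). With the GC trend of each library removed it was -0.01.

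Ciita, on chromosome 16 from 10480059 to 10528418, encodes the co-activator that class II transcription depends on. It had 31.8, 44.03, 26.8 and 36.6 CPM in labelled knockout libraries 1 to 4, against 44.3, 45.8, 33.8 and 36.9 CPM in wild-type libraries 1 to 4. Labelled knockout library 3 was the lowest of all 8 and wild-type library 2 the highest. Ciita gave a log2 fold change of -0.21 ± 0.17 (95% interval -0.59 to 0.18, adjusted p 0.605 in edgeR's quasi-likelihood test). It was -0.43, with an adjusted p of 0.448 in that test, once the GC trend was removed.

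**Figure D2:**
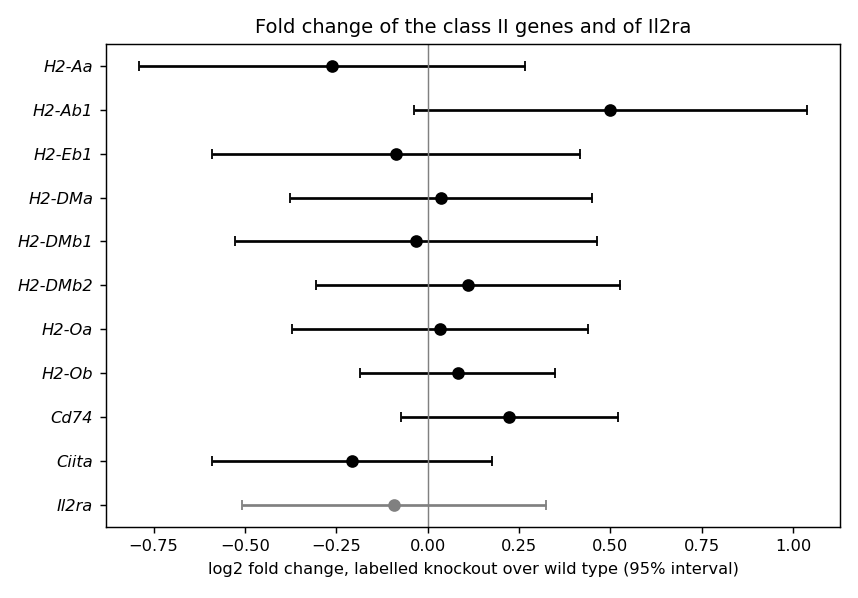
Log2 fold change (labelled knockout over wild type) of the 10 class II genes and of Il2ra, with 95% intervals from edgeR's quasi-likelihood fit. All 11 intervals include 0, and H2-Ab1 at 0.50 lies farthest from it.

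Levels of different genes were set side by side only per kilobase of exon, using the deposited length that sums the exons of all annotated transcripts. Cd74 led with 637 ± 101 CPM per kilobase over the 8 libraries (SD), followed by H2-Ab1 with 98.9 ± 31.0 CPM per kilobase. Cd74 alone made up 61.2% to 70.6% of the summed CPM per kilobase of the 10 genes. H2-Ab1 exceeded the next gene, H2-Ob, in 7 of 8 libraries. Below it came H2-Ob (50.7 ± 5.76), H2-Aa (46.1 ± 12.3), H2-DMb2 (45.0 ± 8.78) and H2-Eb1 (43.3 ± 10.5 CPM per kilobase). Neighbours among these 4 changed places between libraries, with the one named first higher in 5 of 8 libraries each time. H2-DMb1 (24.3 ± 5.72), H2-Oa (17.3 ± 3.06) and H2-DMa (12.5 ± 2.36 CPM per kilobase) kept that order in 8 of 8 libraries. The place of H2-DMa rests on its deposited length of 3448 bases, against 1681 for H2-DMb1 and 1407 for H2-Oa. In CPM H2-DMa was above H2-Oa, with means of 43.8 against 24.6 in labelled knockout libraries and 42.7 against 24.0 in wild-type libraries. The deposited length need not be that of the transcripts in these cells. Ciita was the lowest at 3.93 ± 0.71 CPM per kilobase.

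Ratios between the genes show how the balance of the chains varied. The size of each ratio depends on the deposited lengths, and fragments that map to both H2-DMb genes count for each of them. Between chains that pair, the ratio of H2-DMa to the summed H2-DMb genes per kilobase lay between 0.167 and 0.211 in all 8 libraries and that of H2-Ob to H2-Oa between 2.56 and 3.83. Between chains of different molecules, the ratio of H2-DMa to H2-Oa stayed between 0.655 and 0.789 and that of H2-Eb1 to H2-Aa between 0.797 and 1.15, and the H2-DMb copies had a ratio of H2-DMb2 to H2-DMb1 of 1.65 to 2.08. The widest range was that of the I-A pair. The ratio of H2-Ab1 to H2-Aa was 2.92, 2.39, 3.09 and 2.996 in labelled knockout libraries 1 to 4, against 1.73, 0.880, 1.64 and 2.56 in wild-type libraries 1 to 4. Wild-type library 4 exceeded labelled knockout library 2, and the other 3 wild-type libraries were below all labelled knockout libraries. The ratio of H2-Ab1 to H2-Eb1 was 2.71, 2.51, 2.69 and 3.35 in labelled knockout libraries 1 to 4, against 1.72, 1.07, 2.06 and 2.72 in wild-type libraries 1 to 4. Here too only wild-type library 4 reached the labelled knockout range.

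GC content moved with the H2-Ab1 ratio. H2-Ab1 has 57.7% G and C and H2-Aa 48.9%. Genes above the 90th percentile of GC content deviated from those below the 10th percentile by 0.43, 0.03, 0.37 and 0.11 on the log2 scale in labelled knockout libraries 1 to 4, and by -0.32, -0.72, -0.13 and 0.12 in wild-type libraries 1 to 4. Wild-type library 2, with the lowest H2-Ab1 and the lowest ratio, also had the lowest value here, and wild-type library 4 had a positive one. Other members with nearly as much G and C were not low in wild-type library 2. H2-Oa (56.4%), H2-DMa (56.2%) and Ciita (56.2%) deviated there from their own means by 0.36, 0.30 and 0.31 on the log2 scale. Cd74 (56.3%) deviated by -0.01 and H2-Ab1 by -0.78. The part of GC content in the ratio was not tested. The ratio of Cd74 to the summed I-A chains ran from 3.52 to 6.18 in labelled knockout libraries and from 3.20 to 5.34 in wild-type libraries and the groups overlapped.

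**Figure D3:**
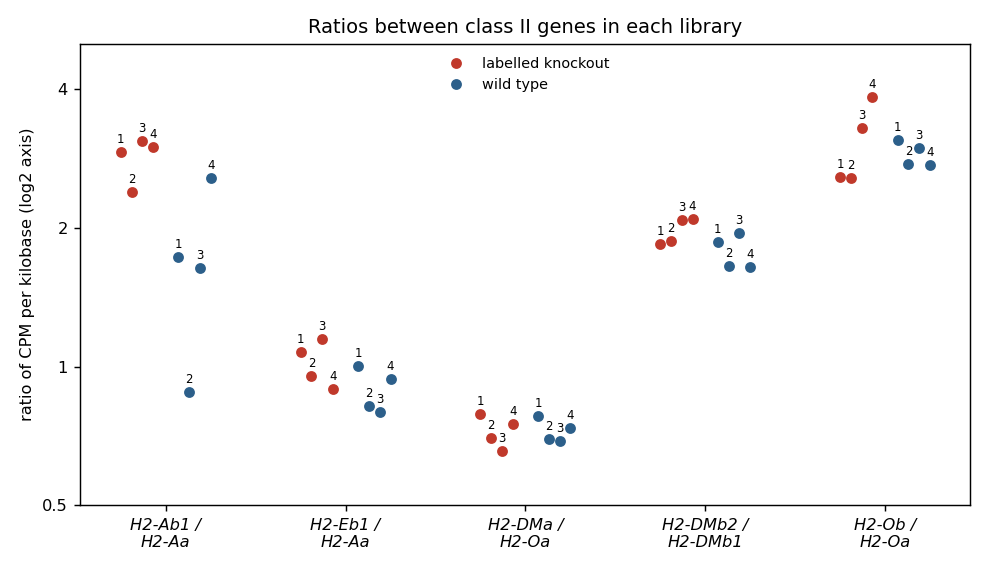
Ratio of CPM per kilobase between class II genes in each library (log2 axis), labelled knockout left of wild type for each ratio, with library numbers beside the points. The H2-Ab1 to H2-Aa ratio spans 0.880 to 3.09, whereas that of H2-DMa to H2-Oa spans 0.655 to 0.789.

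Across libraries most of the members moved together, and this pattern ran across the labels, not along them. The mean deviation of the 10 members from their own means was 0.19, 0.31, -0.25 and -0.18 on the log2 scale in labelled knockout libraries 1 to 4, and 0.10, 0.20, -0.23 and -0.13 in wild-type libraries 1 to 4. Libraries 1 and 2 were above 0 and libraries 3 and 4 below 0 in both groups, and the same signs held without H2-Ab1. The labels give the numbers no meaning. Labelled knockout library 2 was above the mean for 10 of 10 members and wild-type library 3 for 0 of 10. Wild-type library 2 was the highest of all 8 for 6 members and the lowest for H2-Ab1.

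Pearson correlations of log2 CPM over the 8 libraries describe which genes shared this pattern. They were 0.97 for H2-DMa with H2-DMb1, 0.94 for H2-DMa with H2-Oa, 0.90 for H2-Aa with H2-Eb1 and 0.90 for H2-Aa with Ciita. Over all 45 pairs of members the median was 0.62. H2-Ab1 stood outside, with correlations of -0.29 to 0.27 with the other 9 members and 0.02 with H2-Aa, its partner chain. The points share libraries and scaling, so they are not independent of each other.

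**Figure D4:**
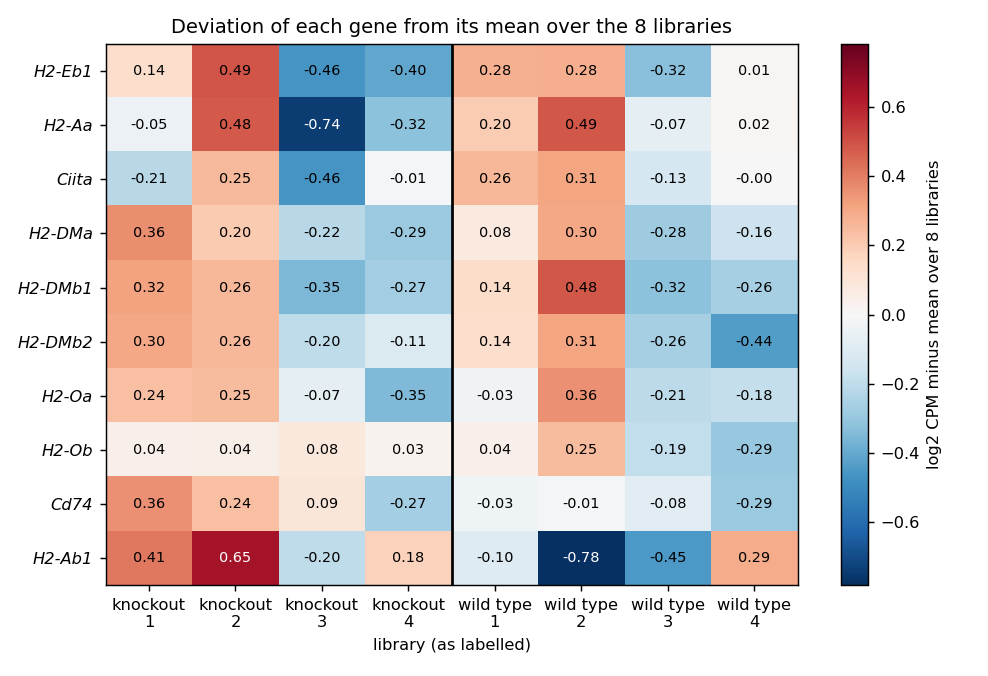
Deviation of each class II gene from its mean over the 8 libraries (log2 CPM, colour and printed value), labelled knockout libraries left of the line and wild-type libraries right of it. The rows of H2-DMa, H2-DMb1 and H2-DMb2 are positive in libraries 1 and 2 and negative in libraries 3 and 4 of both groups, the other 7 rows break this in at least 1 library, and H2-Ab1 in the bottom row reads 0.65 in labelled knockout library 2 and -0.78 in wild-type library 2.

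Of the marker lists of other class II-bearing cells, that of conventional dendritic cells had higher sums in libraries 1 and 2 of both groups. In bulk RNA, fewer cells of a type and less RNA per cell cannot be told apart. The summed level of its 9 markers was 5.196, 7.96, 4.13 and 4.56 CPM in labelled knockout libraries 1 to 4, against 7.30, 6.52, 4.35 and 5.02 CPM in wild-type libraries 1 to 4. In both groups the sums of libraries 1 and 2 were above those of libraries 3 and 4. Among the single markers only Batf3, with 9 counts or fewer in every library, kept this order in both groups. The sum of labelled knockout library 2 held 2.90 CPM of Cd209a, which had 0.10 CPM in labelled knockout library 1. Of the 9 genes, 7 averaged under 1 CPM, Zbtb46, Itgax and Clec9a among them. Each list was also scored as the mean deviation of its tested markers from their own means, in log2 of CPM plus 1. This score was -0.07, 0.22, -0.18 and -0.12 in labelled knockout libraries 1 to 4. In wild-type libraries 1 to 4 it was 0.16, 0.12, -0.09 and -0.05. Labelled knockout library 1, above 0 in the class II mean, was thus below 0 here.

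The sums of the other lists did not follow the class II genes in this way, but the score of the T cell list had their signs. The 12 later B cell markers in the table summed to 3884, 3236, 3562 and 3148 CPM in labelled knockout libraries 1 to 4, against 3324, 3199.6, 3294 and 2990.4 CPM in wild-type libraries 1 to 4, with library 3 above library 2 in both groups. The plasmacytoid dendritic list, most of which is Spib, Tcf4 and Ly6d that B cells also express, summed to 4209, 4635, 4930.1 and 4378 CPM in labelled knockout libraries 1 to 4, against 4135, 4073, 5414 and 4035 CPM in wild-type libraries 1 to 4. The sum was highest in library 3 of both groups. The score of this list was -0.11, 0.39, -0.40 and -0.10 in labelled knockout libraries 1 to 4. In wild-type libraries 1 to 4 the score was 0.20, 0.21, -0.0037 and -0.20. These are the signs of the class II mean in all libraries but labelled knockout library 1. The 12 monocyte and macrophage markers summed to 82.0, 162, 34.4 and 150 CPM in labelled knockout libraries 1 to 4, against 121, 225, 128 and 126 CPM in wild-type libraries 1 to 4. Labelled knockout library 3, lowest in H2-Aa and H2-Eb1, was the lowest here. But labelled knockout library 1, above 0 in the class II mean, was below every wild-type library. Labelled knockout library 4, below 0 in that mean, was above wild-type libraries 1, 3 and 4. The 7 T cell markers summed to 20.9 to 32.2 CPM in labelled knockout libraries and 28.04 to 37.1 CPM in wild-type libraries, nearly all of it Lck. Their score was 0.13, 0.18, -0.23 and -0.05 in labelled knockout libraries 1 to 4. In wild-type libraries 1 to 4 the score was 0.19, 0.10, -0.13 and -0.20. It had the signs of the class II mean in every library, though 6 of the 7 markers averaged under 1 CPM. The scores of the later B cell and monocyte lists broke these signs in more than 1 library. What part other cells have in the class II levels was not tested.

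The 5 genes whose log2 CPM followed the mean of H2-Aa, H2-Ab1 and H2-Eb1 most closely, among 8996 genes at 5 CPM or more, were E2f1, Mad2l2, Ccs, Lrrc8b and Trmt6. They are the highest of 8996 correlations over only 8 libraries, so values of this size can arise by chance, and no link was tested. E2f1, a transcription factor of the cell cycle, had a Pearson correlation of 0.92 and a Spearman correlation of 0.90 over the 8 libraries. The others had Pearson correlations of 0.84 to 0.85. They encode a translesion polymerase subunit (Mad2l2), a copper chaperone (Ccs), an anion channel subunit (Lrrc8b) and a tRNA methyltransferase subunit (Trmt6). Without labelled knockout libraries 3 and 2, the farthest from the median of the class II mean, E2f1 gave 0.78, Ccs 0.74, Lrrc8b 0.70, Mad2l2 0.44 and Trmt6 0.30. The last 2 rest largely on those libraries.

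The factors that act on class II promoters or on Ciita included 0 called of 21 with all 8 libraries, with 14 above and 7 below 0 and a median log2 fold change of 0.21, against 0.0033 over all genes. Unadjusted p-values under 0.05 were found for 3 of them, all higher, and 1 had groups that did not overlap, against 12.6% and 6.79% of all genes. Sbno2, a co-regulator, had 83.1, 75.7, 100.5 and 85.4 CPM in labelled knockout libraries 1 to 4, against 68.0, 47.0, 71.5 and 68.1 CPM in wild-type libraries 1 to 4. These groups did not overlap, and its log2 fold change was 0.44 ± 0.15 with an adjusted p of 0.391 in edgeR's quasi-likelihood test. It was 0.11 once the GC trend was removed. Ebf1, a founding factor of the B lineage, had 773, 712, 951 and 607 CPM in labelled knockout libraries 1 to 4, against 615, 544, 565 and 576 CPM in wild-type libraries 1 to 4. Labelled knockout library 4 lay within the wild-type range, and the log2 fold change was 0.40 ± 0.13 with an adjusted p of 0.391 in the same test.

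The regulator list turned on wild-type library 4. In the fit without it, 3 of the 21 passed an adjusted p of 0.05 in edgeR's test, namely Irf8, Spi1 and Rfx5, against 1.86% of all genes. Irf8, an interferon regulatory factor that can bind DNA with PU.1, had 523, 309.9, 395 and 400.1 CPM in labelled knockout libraries 1 to 4, against 185, 105, 217 and 394 CPM in wild-type libraries 1 to 4. Spi1, which encodes PU.1, had 133, 51.5, 67.1 and 72.3 CPM in labelled knockout libraries 1 to 4, against 27.4, 18.3, 32.9 and 113 CPM in wild-type libraries 1 to 4. Rfx5, the DNA-binding subunit of the X box complex, had 33.7, 20.4, 28.2 and 24.9 CPM in labelled knockout libraries 1 to 4, against 14.5, 7.56, 13.4 and 29.5 CPM in wild-type libraries 1 to 4. In all 3 genes wild-type libraries 1 to 3 were below every labelled knockout library and wild-type library 4 was inside the labelled knockout range. Of the class II members 0 of 10 were called in that fit too. With a term for Y-linked counts besides, 16% of all genes were called, 9 of the 21 regulators and 0 of the 10 members.

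The proteases, chaperones and traffic factors of the pathway included 0 called of 18, with 7 above and 11 below 0 and a median log2 fold change of -0.04. Groups did not overlap for 2 of the 18, against 6.79% of all genes. In edgeR's quasi-likelihood test 1 higher and 2 lower of the 18 had an unadjusted p under 0.05, against 12.6% of all genes. Ctsl, a lysosomal cysteine protease, had 14.9, 17.4, 14.5 and 15.2 CPM in labelled knockout libraries 1 to 4, against 18.7, 19.6, 20.7 and 18.0 CPM in wild-type libraries 1 to 4. Its groups did not overlap, and the log2 fold change was -0.31 ± 0.12 with an adjusted p of 0.391 in edgeR's quasi-likelihood test. Ap3b1, a subunit of the AP-3 sorting adaptor, had 169.8, 163, 189.9 and 162 CPM in labelled knockout libraries 1 to 4, against 150.3, 114, 141 and 151 CPM in wild-type libraries 1 to 4. Its groups did not overlap either, at a log2 fold change of 0.30 ± 0.11 and an adjusted p of 0.391 in that test. Ctss, the protease that cuts the invariant chain in B cells, had overlapping groups at 153.7 to 169.7 CPM in labelled knockout libraries and 154 to 182 CPM in wild-type libraries.

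Among the other genes of the class II region 0 of 7 tested were called, with 5 above and 2 below 0. Groups did not overlap for 1 of the 7, against 6.79% of all genes. In edgeR's quasi-likelihood test 2 higher and 0 lower of the 7 had an unadjusted p under 0.05, against 12.6% of all genes. Tap2, a subunit of the peptide transporter of class I, had 121, 103, 119 and 102 CPM in labelled knockout libraries 1 to 4, against 95.9, 88.5, 92.4 and 93.1 CPM in wild-type libraries 1 to 4. The groups did not overlap, at a log2 fold change of 0.26 ± 0.09 and an adjusted p of 0.391 in edgeR's quasi-likelihood test. Removing the GC trend turned the fold change to -0.06. Its partner Tap1 had 198, 157, 189 and 218 CPM in labelled knockout libraries 1 to 4, against 103, 74.0, 108 and 208 CPM in wild-type libraries 1 to 4. Wild-type library 4 alone lay within the labelled knockout range, and the log2 fold change was 0.63 ± 0.28 with an adjusted p of 0.393 in that test. Without wild-type library 4, Tap1 and Brd2 were called in this list, against 1.86% of all genes, Tap1 at 1.01 ± 0.16 with an adjusted p of 0.0493 in edgeR's test.

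Class I presentation, which shows cytosolic peptides to CD8+ T cells, included 0 called of 16, with 9 above and 7 below 0 and a median of 0.06. Groups did not overlap for 2 of the 16, against 6.79% of all genes. In edgeR's quasi-likelihood test 5 higher and 1 lower of the 16 had an unadjusted p under 0.05, against 12.6% of all genes. Tapbp, the tapasin chaperone, had 485, 379.6, 485 and 395 CPM in labelled knockout libraries 1 to 4, against 319, 184, 324 and 349 CPM in wild-type libraries 1 to 4. The groups did not overlap, at a log2 fold change of 0.57 ± 0.19 and an adjusted p of 0.391 in edgeR's quasi-likelihood test, and of 0.25 once the GC trend was removed. With all 8 libraries the log2 fold change was 0.65 ± 0.25 for H2-K1 and 0.85 ± 0.35 for H2-D1. Both had an adjusted p of 0.391 in edgeR's quasi-likelihood test. Without wild-type library 4, H2-K1, H2-D1 and Tap1 were called, against 1.86% of all genes. The log2 fold changes were then 0.93 ± 0.18 for H2-K1 and 1.32 ± 0.22 for H2-D1, with an adjusted p of 0.0493 for each in edgeR's test. The difference between the class I and class II genes in this respect was not tested.

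The costimulation genes included 0 called of 8, with 4 above and 4 below 0 and a median of -0.0037. In edgeR's quasi-likelihood test 0 of the 8 had an unadjusted p under 0.05, against 12.6% of all genes. Icosl, the ligand of ICOS, had 1.32, 1.26, 0.561 and 1.30 CPM in labelled knockout libraries 1 to 4, against 3.72, 2.22, 0.848 and 0.645 CPM in wild-type libraries 1 to 4. Tnfsf9, the ligand of 4-1BB, had 0.969, 0.477, 0.942 and 0.721 CPM in labelled knockout libraries 1 to 4, against 0.784, 0.599, 0.402 and 0.466 CPM in wild-type libraries 1 to 4. Both were near the limit of what was tested and their groups overlapped. The log2 fold changes were -0.74 ± 0.54 for Icosl and 0.46 ± 0.35 for Tnfsf9, with adjusted p-values of 0.560 and 0.577 in edgeR's quasi-likelihood test. That of Icosl ran from -1.02 without wild-type library 4 to -0.16 without wild-type library 1.

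**Figure D5:**
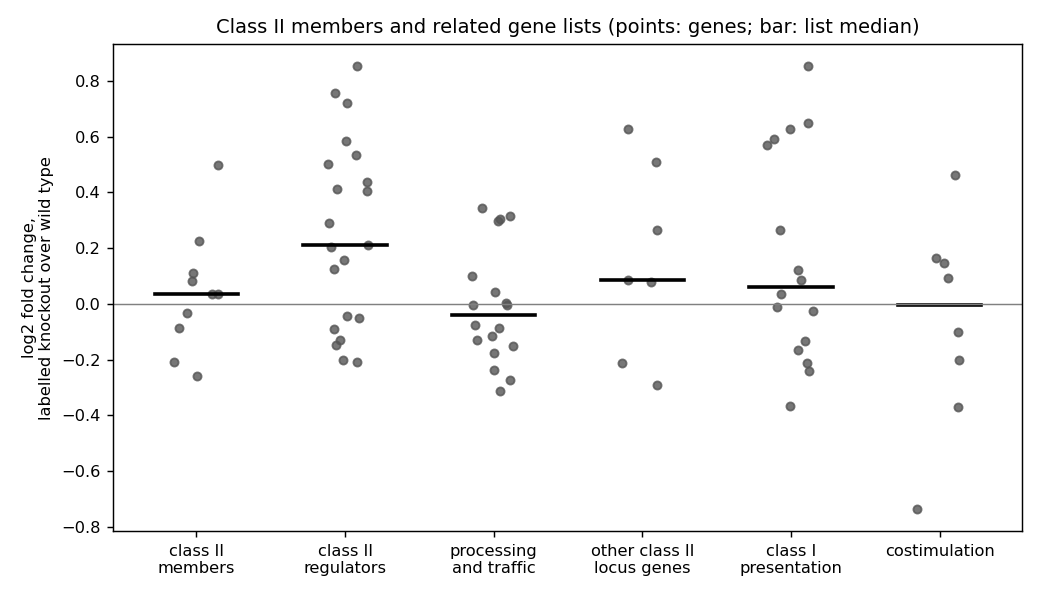
Log2 fold change (labelled knockout over wild type, all 8 libraries) of each tested gene in the class II members and in 5 related lists, with the median of each list as a bar. The class II members lie between -0.26 and 0.50 around a median of 0.04, and the regulators have the highest median at 0.21.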

How the data were processed

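The deposited table holds raw counts of fragments per gene for 55487 genes in 8 libraries. Per the file headers, the authors ran featureCounts 2.0.1 on read pairs against GENCODE M25 exons, counting every alignment of a multi-mapping fragment, with no strand setting recorded. STAR 2.7.7a, GATK 4.1.9.0 and the mm10 build are named per the submitters' processing notes. Trizol RNA went into SMARTER mRNA-Seq libraries, per the labels' protocols. The deposited exon length of each gene (unit: other) was used only for CPM per kilobase. The table had 0 columns of other samples.

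Symbols, positions and GC content came from GENCODE M21 on GRCm38, in which 55227 of the identifiers were found. Genes passing filterByExpr (18884) were scaled by TMM and tested with edgeR 4.0.16 in R 4.3.3 (glmQLFit with robust estimation, glmQLFTest, two-sided), in a model of genotype alone, and p-values were adjusted by Benjamini-Hochberg over all genes tested. Fold changes are labelled knockout over wild type, with an SE computed from the test's F value. The common biological coefficient of variation was 0.308. The 12 replicate pairs had chi-square values per degree of freedom of at least 25.2, so none was a copy. The fit was tested on simulated data.

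The genes named are the 10 members, Il2ra, the 2 genes with the smallest p of each list, and the 5 genes most correlated with the classical chains. Genes named for another reason were chosen after their values were seen. The members and lists were chosen with earlier results of these data known.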

Additional observations from a re-analysis of the deposited data

Results flagged for a closer look

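Of 52 groups of 4 libraries examined, for the levels, ratios and marker sums above, 3 had 1 library far from the other 3, where chance alone gives about 1 in 20. The summed plasmacytoid dendritic cell markers were 5414 CPM in wild-type library 3, against 4035 to 4135 CPM in the other wild-type libraries. The summed monocyte and macrophage markers were 225 CPM in wild-type library 2, against 121 to 128 CPM in the other wild-type libraries. The summed T cell markers were 20.9 CPM in labelled knockout library 3, against 30.6 to 32.2 CPM in the other labelled knockout libraries. No class II member was among them.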

How the results depend on the processing

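Of the class II members 0 were called under all 20 alternative fits (17 planned and 3 added after the data were seen) at an adjusted p of 0.05, nor at 0.1 with the fit of all 8 libraries by genotype alone. H2-Ab1 would pass 0.1 without wild-type library 4 (adjusted p 0.0887) and with the sex term besides (0.0588). Over all genes, 6 were called by DESeq2 1.42.0, 0 to 363 when 1 library was left out (363 without wild-type library 4, 358 of them higher), and 3112 (16%) with a term for Y-linked counts together with leaving out that library. Leaving out 1 library gave 0 to 3 called regulators, 0 to 2 locus genes and 0 to 3 class I genes. With the sex term and without wild-type library 4 there were 9 called regulators, 3 processing genes, 3 locus genes and 7 class I genes. The cause was not tested.

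H2-Ab1 ran from 0.37 to 0.71 when 1 library was left out and from 0.25 to 0.72 otherwise. The fold changes of the genes near 0 changed sign. With upper quartile factors, which moved the median of all genes to -0.09, H2-DMa was at -0.069, H2-Oa at -0.072 and H2-Ob at -0.023. With the GC trend removed, which moved that median to -0.05, H2-DMa was at -0.21, H2-Oa at -0.22, H2-DMb2 at -0.0068, Cd74 at -0.011 and Tap2 at -0.064. With the sex term and without wild-type library 4, H2-DMa was at -0.021, H2-DMb2 at -0.020, H2-Oa at -0.033 and H2-Ob at -0.0077. H2-DMb1 was at 0.0040 with no count filter and at 0.038 with limma-voom 3.58.1. Leaving out 1 library gave -0.26 to 0.037 for H2-Eb1, -0.11 to 0.18 for H2-DMa, -0.17 to 0.18 for H2-DMb1, -0.0025 to 0.28 for H2-DMb2, -0.063 to 0.20 for H2-Oa and -0.27 to 0.0071 for Il2ra, and, with no change of sign, -0.48 to -0.10 for H2-Aa, 0.12 to 0.33 for Cd74 and -0.30 to -0.10 for Ciita.

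With the replicate number as a block 0 genes were called, and 3057 had an unadjusted p under 0.05, against 2388 without it. H2-Aa was at -0.31 in that fit, with an unadjusted p of 0.0417 and an adjusted p of 0.301 by edgeR. The labels do not say that the numbers pair samples. Over genes at 5 CPM or more, the correlations of same-numbered deviations were 0.0066, 0.64, 0.25 and -0.03. Only labelled knockout library 2 had its highest correlation with the wild-type library of its own number. Labelled knockout library 1 had it with wild-type library 4 (0.64), library 3 with wild-type library 1 (0.27) and library 4 with wild-type library 2 (0.21). The block lowered the SE from 0.24 to 0.13 for H2-Aa, 0.23 to 0.13 for H2-Eb1, 0.22 to 0.12 for H2-DMb1 and 0.19 to 0.11 for H2-DMb2. It hardly moved the SE of H2-Ab1 (0.24 to 0.23) and H2-Ob (0.12 in both fits). Beyond these correlations, whether the numbers pair the libraries was not tested. With 4 libraries a group and a median SE of 0.16 on the log2 scale among genes at 5 CPM or more, small changes could not have been detected.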

Other observations

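Among the genes of the lists, several picked after their values were seen had wild-type library 4 close to the labelled knockout libraries. Nfyc, a subunit of the NF-Y complex of the Y box, had 124, 68.1, 78.0 and 86.4 CPM in labelled knockout libraries 1 to 4, against 46.3, 29.7, 51.8 and 124 CPM in wild-type libraries 1 to 4. Brd2, a chromatin reader encoded beside H2-DMa, had 224, 129, 161 and 156 CPM in labelled knockout libraries 1 to 4, against 88.6, 75.8, 100.1 and 207 CPM in wild-type libraries 1 to 4. Pdia3, a chaperone of class I loading, had 305, 119, 156 and 197 CPM in labelled knockout libraries 1 to 4, against 96.8, 38.3, 93.8 and 286 CPM in wild-type libraries 1 to 4. Wild-type libraries 1 to 3 were below every labelled knockout library in each of the 3 genes. The other NF-Y subunits did not share this pattern, with Nfya at 8.72 to 10.8 CPM in labelled knockout libraries and 8.50 to 12.6 CPM in wild-type libraries. What sets wild-type library 4 apart was not tested.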
